A study of Mus musculus with 36 samples.

Results

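The mRNAs of glutamine synthetase, of 6 amino acid transporter subunits and of 3 polyamine enzymes were followed across the day in gastrocnemius, a limb muscle of mixed glycolytic and oxidative fibres. The 10 genes were named by symbol: Glul, Slc7a2, Slc38a2, Slc38a4, Slc7a5, Slc3a2, Slc1a5, Odc1, Amd1 and Smox. They are 10 of the 24319 rows of the deposited table, and all 10 were among the 10837 genes that reached a mean of 1 FPKM (fragments scaled by transcript length and by the depth of the library) and were tested. They were selected on measured values, the daily rhythms of these genes in these libraries, so amplitudes, peak times and rhythm calls are given below as a description, without p-values. The mice had a liver-specific deletion of Bmal1, a transcription factor gene at the core of the circadian clock (Bmal1hep-/-), or were wild type (WT). Polyadenylated RNA was sequenced at zeitgeber time (ZT) 0, 4, 8, 12, 16 and 20, where by convention ZT0 is lights on and ZT12 lights off, from 3 biological replicates per genotype and time, 36 libraries in all. The sources used here do not give strain, age, feeding or the Cre driver, and no deletion or treatment is given as shared by both genotypes. The series title concerns the liver clock and rhythmic transcription in muscle.

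Skeletal muscle is a main source of circulating glutamine, which glutamine synthetase makes from glutamate and ammonia, and its gene is a known target of glucocorticoids. System A transporters (Slc38a2 and Slc38a4, the proteins SNAT2 and SNAT4) carry small neutral amino acids into the fibre with sodium, ASCT2 (Slc1a5) exchanges neutral amino acids such as glutamine, and CAT-2 (Slc7a2) carries arginine, lysine and ornithine. LAT1 (Slc7a5) is joined to the heavy chain 4F2hc (Slc3a2) and exchanges glutamine for leucine, a signal to mTORC1. Ornithine decarboxylase (Odc1) makes putrescine, S-adenosylmethionine decarboxylase (Amd1) supplies the aminopropyl groups that turn it into spermidine and spermine, and spermine oxidase (Smox) turns spermine back into spermidine.

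Absolute read depth is unknown. By the steps between low FPKM values, depth in the shallowest library was 58.1% of that in the deepest, and medians were 73.8% in Bmal1hep-/- and 69.1% in WT. Summed markers of muscle fibres were high throughout (45406 to 110634 FPKM), with Ckm, the muscle creatine kinase, at 17457 to 33733 FPKM. The table listed Acta1, the skeletal actin gene, at 0 in Bmal1hep-/- ZT16 replicate 3, and Myh4, a fast myosin gene, had a median of 0 over the 36 libraries, so a listed 0 need not mean an absent mRNA. None of the 10 genes was listed at 0 in any library. Summed markers of adipocytes ran from 272 to 1834 FPKM and were highest in Bmal1hep-/- ZT4 replicate 1 (1834) and Bmal1hep-/- ZT20 replicate 3 (1306). Summed markers of hepatocytes ran from 1.78 to 245 FPKM and were highest in WT ZT8 replicate 3. Those of Schwann cells ran from 43.8 to 462 FPKM and were highest in WT ZT12 replicate 1 (462) and Bmal1hep-/- ZT16 replicate 3 (302). These are bulk tissue samples, so fewer cells of a type and less RNA per cell cannot be told apart. In earlier results of these data 6 libraries stood apart. They were WT ZT8 replicate 3 and, in Bmal1hep-/-, ZT4 replicate 1, ZT8 replicate 2, ZT12 replicate 2, ZT16 replicate 3 and ZT20 replicate 3. Of the 10 genes, 0 were called in any test between genotypes with or without them. Over all genes, the test at ZT4 called 0 of 10837 with them and 115 without them.

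In FPKM, which allows for transcript length, the polyamine enzymes had the highest medians of the 10 and LAT1 the lowest. Median levels over the 18 libraries of a genotype were 366 FPKM in Bmal1hep-/- and 348 in WT for Amd1, 312 and 317 for Smox, and 149 and 125 for Odc1. The level of Amd1 varied by more than that of any other of the 10 genes between libraries, from 4.62 to 1367 FPKM, so its place in this order is uncertain. Glul followed with 105 FPKM in Bmal1hep-/- and 102 in WT, then Slc38a2 with 49.3 and 50.4, and Slc38a4 with 47.8 and 42.6. Slc7a2 (13.1 and 12.3), Slc3a2 (12.9 and 13.1) and Slc1a5 (11.01 and 10.2) lay close together, within the range that each spanned over the day. Slc7a5 stood far below, at a median of 1.30 FPKM in Bmal1hep-/- and 1.38 in WT, and its highest library (2.45 FPKM) was below the lowest library of every other of the 10 genes.

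Of the 10 genes, 4 were called for a 24 h rhythm in Bmal1hep-/- muscle and 4 in WT muscle, the same 4 in both: Glul, Slc7a2, Slc38a2 and Slc38a4. Over all genes tested, 5.47% were called in Bmal1hep-/- and 6.03% in WT (limma's F test of a cosine and a sine, Benjamini-Hochberg adjusted over all genes, threshold 0.05). The genes were chosen with these rhythms known, so nothing is read from the difference between those shares. The 4 did not peak together. Fitted peaks followed one another from the first part of the night, in Slc7a2 and Glul, through its later part, in Slc38a2, to lights on, in Slc38a4.

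**Figure D1:**
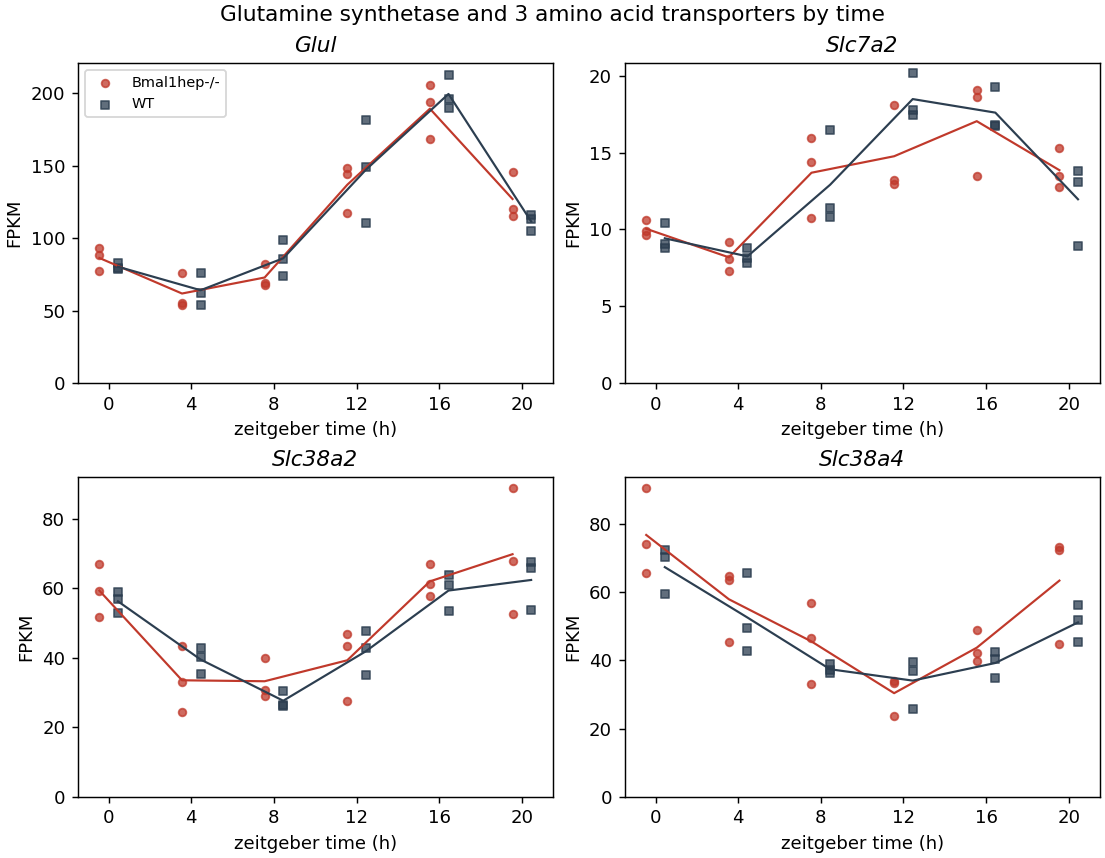
FPKM (vertical axis, from 0) of Glul, Slc7a2, Slc38a2 and Slc38a4 against zeitgeber time in hours, with 1 point per library (circles for Bmal1hep-/-, squares for WT) and lines through the means of 3 libraries. In both genotypes Glul is highest at ZT16, Slc38a2 at ZT20 and Slc38a4 at ZT0, while Slc7a2 means are highest at ZT16 in Bmal1hep-/- and at ZT12 in WT.

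Glul had the widest daily swing of the 4. Across the day in Bmal1hep-/- muscle it read 88.3, 77.4 and 93.5 FPKM at ZT0, 76.3, 53.8 and 55.5 at ZT4, 67.6, 82.2 and 69.0 at ZT8, then 144, 118 and 149 at ZT12, 194, 168 and 206 at ZT16, and 146, 120.2 and 115 at ZT20. Across the day in WT muscle it read 79.1, 82.7 and 79.3 FPKM at ZT0, 54.2, 62.2 and 76.0 at ZT4, 86.0, 73.8 and 98.8 at ZT8, then 182, 111 and 149.5 at ZT12, 189.7, 196 and 213 at ZT16, and 113, 116 and 105 at ZT20. The 3 libraries at ZT16 were above all 3 at ZT4 in each genotype, and the genotypes overlapped at all 6 times. The mean at ZT16 was 3.06 times the mean at ZT4 in Bmal1hep-/- and 3.11 times in WT. The fitted amplitude, the distance from mean to peak on the log2 scale, was 0.78 ± 0.07 (SE) in Bmal1hep-/- and 0.76 ± 0.07 in WT. The fitted peak fell at 16.2 ± 0.32 h in Bmal1hep-/- and 15.3 ± 0.33 h in WT, a difference of 0.86 h with a 95% interval of -0.08 to 1.80 h.

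The sequence before the Glul start is shown because, among the genes with a promoter entry, it was the only one with a match to any of 7 motifs of clock, stress or hormone-regulated factors. The searches covered both strands of 300 bases per start (250 before and 50 after) and the letters CACGTG (E-box), TGATGCAA (C/EBP-ATF element), TGACGTCA (CRE), TTATGTAA (D-box), TAGGTCA (core of the ROR and REV-ERB element) TGTTTAC (FOXO site) and the full palindrome of the glucocorticoid response element. Promoter entries were found for 7 of the 10 genes: Glul, Slc38a2, Slc38a4, Slc3a2, Odc1, Amd1 and Smox. The core TAGGTCA began 58 bases before the RefSeq start of Glul, on the strand of the gene, and is in capitals below. Of 32851 mouse promoters of this length, 2.61% held TAGGTCA, 7.15% the E-box, 3.65% the FOXO site, 1.79% the CRE, 0.938% the D-box, 0.895% the C/EBP-ATF element and 0.00913% the glucocorticoid element. A match is a run of letters and not a measured binding site. The stretch is chr1:153899679-153899928 on the plus strand of GRCm38.p6 (RefSeq), the 250 bases upstream of the gene, which GENCODE annotates at chr1:153899944-153909723 (GRCm38, plus strand).
Glul: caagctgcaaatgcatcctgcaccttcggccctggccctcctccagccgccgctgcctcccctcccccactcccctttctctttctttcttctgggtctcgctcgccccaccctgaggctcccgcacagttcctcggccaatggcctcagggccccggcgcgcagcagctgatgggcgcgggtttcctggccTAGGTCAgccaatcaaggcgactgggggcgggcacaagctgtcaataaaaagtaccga

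Slc7a2 (chr8:40862396-40922308, plus strand, GRCm38), the cationic amino acid transporter, was lowest at ZT4 and rose toward the night in both genotypes. At ZT4 it had 7.29, 8.09 and 9.16 FPKM in Bmal1hep-/- muscle, against 8.14, 7.84 and 8.76 in WT muscle. At ZT12 it had 12.97, 13.2 and 18.1 FPKM in Bmal1hep-/-, against 17.8, 17.5 and 20.2 in WT, and at ZT16 it had 18.6, 13.5 and 19.04 in Bmal1hep-/-, against 16.7, 16.8 and 19.3 in WT. At ZT0, ZT8 and ZT20 the genotypes also overlapped, between 8.79 FPKM, a WT library at ZT0, and 16.5 FPKM, a WT library at ZT8. Bmal1hep-/- means were highest at ZT16, 2.08 times the mean at ZT4, while WT means were highest at ZT12, 2.24 times the mean at ZT4. At ZT12 the genotypes overlapped through a single Bmal1hep-/- library at 18.1 FPKM, and the log2 difference was -0.32 ± 0.16 (limma adjusted p = 0.696). Amplitudes were 0.43 ± 0.07 in Bmal1hep-/- and 0.55 ± 0.07 in WT, with peaks at 14.8 ± 0.59 h and 13.9 ± 0.46 h. The 95% interval of the amplitude difference was -0.31 to 0.07, and that of the peak difference was -0.63 to 2.41 h.

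The system A transporters Slc38a2 and Slc38a4 lie near each other on chromosome 15 (chr15:96687392-96699730 and chr15:96994820-97055956, both on the minus strand of GRCm38), and they cycled with unlike timing. By mean FPKM, Slc38a2 was lowest at ZT8, with 39.9, 29.01 and 30.9 FPKM in Bmal1hep-/- and 30.4, 26.1 and 26.5 in WT. It was highest at ZT20, with 52.7, 89.0 and 68.0 FPKM in Bmal1hep-/- and 65.8, 67.8 and 53.8 in WT. At both times the genotypes overlapped, and within each genotype the 3 libraries at ZT20 were above the 3 at ZT8, by a ratio of means of 2.10 in Bmal1hep-/- and 2.26 in WT. At ZT16 it had already reached 67.0, 61.4 and 57.8 FPKM in Bmal1hep-/-, against 63.8, 60.9 and 53.5 in WT, and at ZT0 it still had 67.2, 51.7 and 59.3 in Bmal1hep-/-, against 57.0, 53.1 and 58.9 in WT. The descent came by ZT4, with 24.4, 32.96 and 43.3 FPKM in Bmal1hep-/- and 40.4, 43.0 and 35.3 in WT. In Bmal1hep-/- the means at ZT4 and ZT8 were level, at 33.5 and 33.3 FPKM, and 5.07 and 5.09 on the log2 scale. Slc38a2 thus stayed high from ZT16 to ZT0. Fitted amplitudes of Slc38a2 were 0.60 ± 0.08 in Bmal1hep-/- and 0.55 ± 0.08 in WT, and its peaks were at 19.5 ± 0.49 h and 19.7 ± 0.53 h.

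Slc38a4 was lowest at ZT12 and highest at ZT0, the ends of the conventional night. At ZT12 it had 33.97, 23.7 and 33.5 FPKM in Bmal1hep-/- muscle, against 25.7, 39.6 and 37.0 in WT muscle, and at ZT0 it had 74.3, 65.6 and 90.6 in Bmal1hep-/-, against 72.4, 59.5 and 70.3 in WT. The genotypes overlapped at both times, and the mean at ZT0 was 2.53 times that at ZT12 in Bmal1hep-/- and 1.98 times in WT. Its amplitudes were 0.58 ± 0.08 in Bmal1hep-/- and 0.47 ± 0.08 in WT, with an interval of the difference of -0.11 to 0.34, and its peaks were at 23.8 ± 0.52 h and 23.9 ± 0.65 h. Through the day its level declined, with 45.5, 63.6 and 64.8 FPKM in Bmal1hep-/- and 65.6, 42.7 and 49.5 in WT at ZT4, and 56.9, 33.2 and 46.6 in Bmal1hep-/- and 37.1, 38.9 and 36.3 in WT at ZT8. At ZT20 Slc38a4 had 44.7, 72.3 and 73.3 FPKM in Bmal1hep-/- and 51.8, 56.3 and 45.4 in WT. The lowest of these 6 values and the highest were both from Bmal1hep-/- libraries.

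LAT1, by contrast with the other transporters in abundance, was close to the 1 FPKM filter, and its heavy chain was flat. Slc7a5 (chr8:121881150-121907694, minus strand, GRCm38) had 1.77, 1.30 and 1.29 FPKM in Bmal1hep-/- muscle at ZT0, against 0.871, 0.903 and 1.08 in WT muscle. At ZT0 all 3 Bmal1hep-/- libraries were therefore above all 3 WT libraries, an order found for 6.55% of all genes tested at that time. The log2 difference on the log2(FPKM + 1) scale, which understates changes of low genes, was 0.33 ± 0.19 (limma adjusted p = 1.00), so it did not pass. At ZT12 the order was the other way in part, with 1.69, 1.98 and 1.12 FPKM in Bmal1hep-/- and 1.91, 1.74 and 2.45 in WT, and the groups overlapped. Its fitted amplitude was 0.07 ± 0.08 in Bmal1hep-/- and 0.27 ± 0.08 in WT, not called in either, and the interval of the amplitude difference was -0.42 to 0.02.

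Slc3a2 (chr19:8706882-8723369, minus strand, GRCm38), which encodes the heavy chain shared by LAT1 and other light chains, ran from 10.9 to 16.0 FPKM in Bmal1hep-/- and from 10.3 to 15.3 FPKM in WT over all times. Its within-group SD on the log2 scale was 0.15, the smallest of the 10 genes, where the median gene had 0.18. Its amplitude was 0.06 ± 0.05 in Bmal1hep-/- and 0.02 ± 0.05 in WT. Across the 12 group means the 2 chains of LAT1 correlated at a Pearson's r of 0.32, as a description of 12 points that share libraries.

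Slc1a5 (chr7:16781340-16798274, plus strand, GRCm38), the ASCT2 exchanger, was set apart by single libraries. At ZT4 it had 41.5, 9.07 and 7.06 FPKM in Bmal1hep-/- muscle, against 7.61, 8.76 and 9.13 in WT muscle. At ZT20 it had 13.3, 8.34 and 32.3 FPKM in Bmal1hep-/-, against 9.005, 9.66 and 8.09 in WT. The highest values, 41.5 and 32.3 FPKM, came from Bmal1hep-/- ZT4 replicate 1 and Bmal1hep-/- ZT20 replicate 3, the libraries with the highest summed adipocyte markers. All 7 adipocyte markers were in the table and none was listed at 0 in every library. Their sum ran from 445 to 1834 FPKM in Bmal1hep-/- ZT4, against 382 to 423 in WT ZT4, and from 359 to 1306 FPKM in Bmal1hep-/- ZT20, against 311 to 488 in WT ZT20. In these sums Fabp4 alone had a median of 347 FPKM, against 425 for all 7 markers. The relation was therefore measured on the mean log2(FPKM + 1) of the 7 markers and not on their sum. Over 36 libraries, deviations of Slc1a5 from the group means followed those of that mean. Pearson's r was 0.936 (two-sided permutation test within groups, p = 1e-05, the smallest that 100000 permutations can give, adjusted p = 0.00011 over 11 relations). Spearman's rho was 0.856 (permutation p = 5e-05, adjusted p = 0.00055). With the points of the 2 libraries highest in the markers left out, r was 0.889. The group means behind the deviations still included those 2 libraries, so this r is not free of them. The mean log2 difference of Slc1a5 between genotypes was 0.20 ± 0.18 (limma adjusted p = 0.831), and -0.01 ± 0.12 without those 2 libraries (adjusted p = 0.987). For the other 9 genes the same relation did not pass after adjustment, the next being Slc3a2 with r of 0.542 (permutation p = 0.0146, adjusted p = 0.0538) and rho of 0.436 (permutation p = 0.0386, adjusted p = 0.141).

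**Figure D2:**
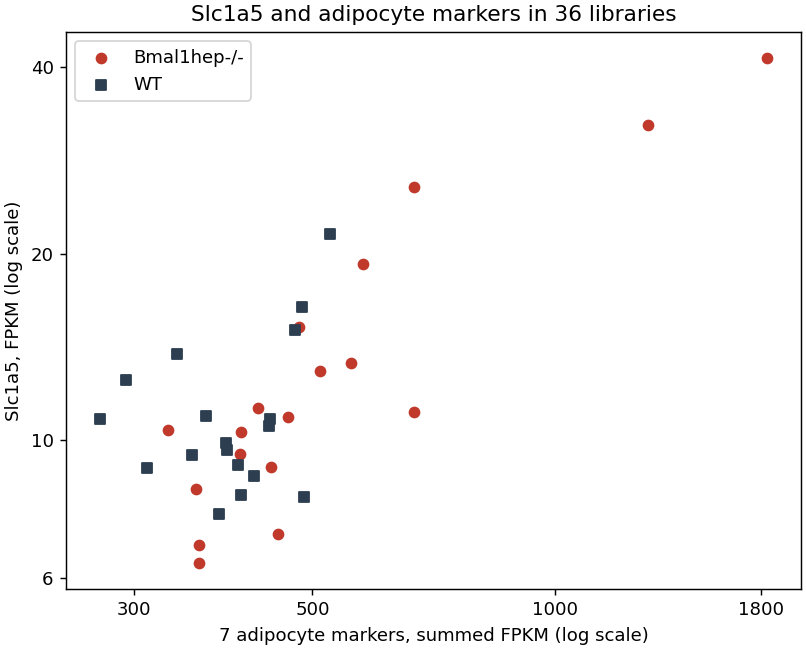
Slc1a5 in FPKM (vertical, log scale) against the summed FPKM of 7 adipocyte markers (horizontal, log scale), with 1 point for each of 36 libraries (circles for Bmal1hep-/-, squares for WT). The 2 points at the upper right, at 41.5 and 32.3 FPKM, are Bmal1hep-/- libraries with marker sums of 1834 and 1306 FPKM.

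Odc1 (chr12:17544794-17551505, plus strand, GRCm38), the rate-limiting enzyme of polyamine synthesis, had the smallest p of the 10 genes for the mean level between genotypes, but did not pass after adjustment. At ZT0 it stood at 178, 99.7 and 167 FPKM in Bmal1hep-/- muscle, against 85.9, 83.4 and 149 in WT muscle. At ZT4 it stood at 99.7, 152 and 197 FPKM in Bmal1hep-/-, against 104, 78.8 and 92.4 in WT, and at ZT20 at 122, 153 and 146 in Bmal1hep-/-, against 123, 91.9 and 84.3 in WT. At each of these 3 times the genotypes overlapped through the lowest Bmal1hep-/- library. From ZT8 to ZT16 the values interleaved, and at ZT8 Odc1 had 176, 133 and 101 FPKM in Bmal1hep-/- and 137, 84.7 and 128 in WT. It had 152, 165 and 127 FPKM in Bmal1hep-/- and 152, 135 and 136 in WT at ZT12, and 185, 117 and 140.1 in Bmal1hep-/- and 165, 132 and 129 in WT at ZT16. The Bmal1hep-/- mean was above the WT mean at 6 of 6 times, and 13 of 18 Bmal1hep-/- libraries were above the WT mean of their own time. How many of all genes show such counts was not computed, so they are a description and no result about Odc1.

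Over all times Odc1 averaged 145 ± 30.04 FPKM in Bmal1hep-/- and 116 ± 28.01 FPKM in WT (SD, n = 18 each). The mean log2 difference was 0.33 ± 0.10 (1.25-fold, 95% interval 0.11 to 0.54, limma adjusted p = 0.326 over all genes tested). At ZT4 the difference was 0.66 ± 0.25 (limma adjusted p = 0.466), and at ZT0 and ZT20 it was 0.49 and 0.50, while at ZT12 and ZT16 it was 0.06 and 0.03. It was 0.43 at ZT4 without Bmal1hep-/- ZT4 replicate 3, and 0.92 without Bmal1hep-/- ZT4 replicate 1. The WT means of Odc1 ran from 91.6 FPKM at ZT4 to 142 at ZT16, a ratio of 1.55. The highest and lowest Bmal1hep-/- means had a ratio of 1.10. These extremes were picked from the means themselves, so the ratios are a description and no test. The fitted amplitude of Odc1 was 0.02 ± 0.10 in Bmal1hep-/- and 0.32 ± 0.10 in WT, neither called. The amplitude difference was -0.30 with an approximate 95% interval of -0.58 to -0.02, while the test of the rhythm difference itself gave an adjusted p of 0.913 in limma. Within groups Odc1 varied more than 91.2% of tested genes (SD 0.33 on the log2 scale). Of the 100-base stretches of the Odc1 transcript, 19.6% also occur in transcripts of 9 other genes, most often the predicted gene Gm17709, so how shared reads were assigned could bear on its values.

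**Figure D3:**
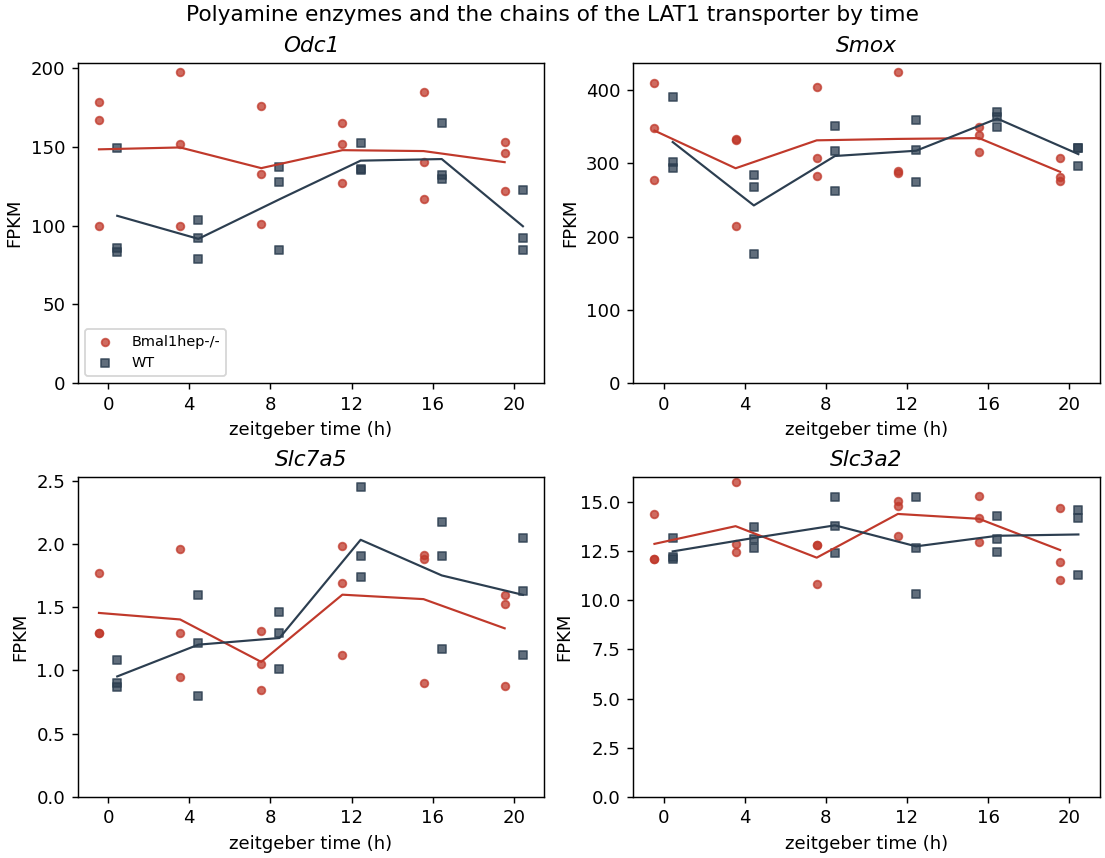
FPKM (vertical axis, from 0) of Odc1, Smox, Slc7a5 and Slc3a2 against zeitgeber time in hours, with 1 point per library (circles for Bmal1hep-/-, squares for WT) and lines through the means of 3 libraries. Bmal1hep-/- means of Odc1 lie farthest above WT means at ZT4, where points of the genotypes overlap.

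Amd1 is given here together with Amd2, a near-identical gene. Amd1 (chr10:40287458-40302186, minus strand, GRCm38) and Amd2 (chr10:35708675-35711892, minus strand, GRCm38) have coding sequences of 1005 bases each that differ at 1 position (99.9% identity). The difference is G796C, with the Amd1 base first, counted from 1 at the A of the start codon, and it gives D266H in proteins of 334 residues. Of the 100-base stretches of the Amd1 transcript, 73.2% are found letter for letter in the Amd2 transcript. The stretch around the difference (coding bases 746 to 846, from GENCODE transcripts on GRCm38) is shown to let the 2 genes be compared, with base 796 in capitals.
Amd1: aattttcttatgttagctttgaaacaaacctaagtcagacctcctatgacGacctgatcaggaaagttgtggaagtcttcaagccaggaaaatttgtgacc
Amd2: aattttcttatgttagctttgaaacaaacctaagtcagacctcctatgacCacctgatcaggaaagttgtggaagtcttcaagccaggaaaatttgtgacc

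Amd1 ranged over 296-fold between libraries, and Amd2 tended to be lower in libraries where Amd1 was higher, though not within every group. At ZT4 Amd1 had 541, 4.62 and 1039 FPKM in the 3 Bmal1hep-/- libraries, in which Amd2 had 297, 1176 and 2.99. In WT at ZT4 Amd1 had 199.98, 63.4 and 332 FPKM and Amd2 had 766, 635 and 685. In Bmal1hep-/- ZT4 one replicate held almost all of the pair's signal in Amd2 and another in Amd1, while in WT ZT4 Amd2 was the higher in every library. How the counting split reads between the 2 genes is not known here, and its part in these values was not tested. Amd1 made up from 0.391% to 99.9% of the sum of the pair, with a median of 34.1%, and exceeded Amd2 in 11 libraries, 7 of them Bmal1hep-/- and 4 WT. Within groups the 2 genes moved against each other over 36 libraries, with a Spearman's rho of -0.622 (two-sided permutation test within groups, p = 0.00237, adjusted p = 0.013 over 11 relations). Pearson's r was -0.671 (permutation p = 0.0147, adjusted p = 0.0538). It was -0.486 with the points of the 2 libraries farthest from the median left out, though the group means behind the deviations still included them.

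The sum of Amd1 and Amd2 varied less than either gene, from 838 to 1464 FPKM in Bmal1hep-/- and from 699 to 1431 FPKM in WT. Its within-group SD on the log2 scale was 0.23, larger than in 71.9% of tested genes, against 1.57 for Amd1, which was larger than in 99.9% of tested genes, and 1.94 for Amd2. At ZT12 Amd1 had 154, 249 and 133 FPKM in Bmal1hep-/-, all below the 439.7, 1361 and 1367 in WT, an order found for 4.41% of all genes tested at that time. Amd2 had 904, 748 and 1019 FPKM in Bmal1hep-/- at ZT12, all above the 507, 1.52 and 64.3 in WT. That order was found for 4.39% of all genes tested at that time. The 2 log2 differences at ZT12 were -2.43 ± 1.27 for Amd1 (limma adjusted p = 0.698) and 4.34 ± 1.57 for Amd2 (adjusted p = 0.686). The sums at ZT12 overlapped, with 1058, 997 and 1152 FPKM in Bmal1hep-/- and 947, 1362 and 1431 in WT, a log2 difference of -0.20 ± 0.18 (adjusted p = 0.732). Over all times the mean difference was -0.22 ± 0.52 for Amd1 alone (95% interval -1.29 to 0.85, limma adjusted p = 0.949). For the sum it was 0.09 ± 0.07 (interval -0.07 to 0.24, adjusted p = 0.817), a setting chosen after the values were seen. The amplitude of the sum was 0.03 ± 0.07 in Bmal1hep-/- and 0.17 ± 0.07 in WT.

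**Figure D4:**
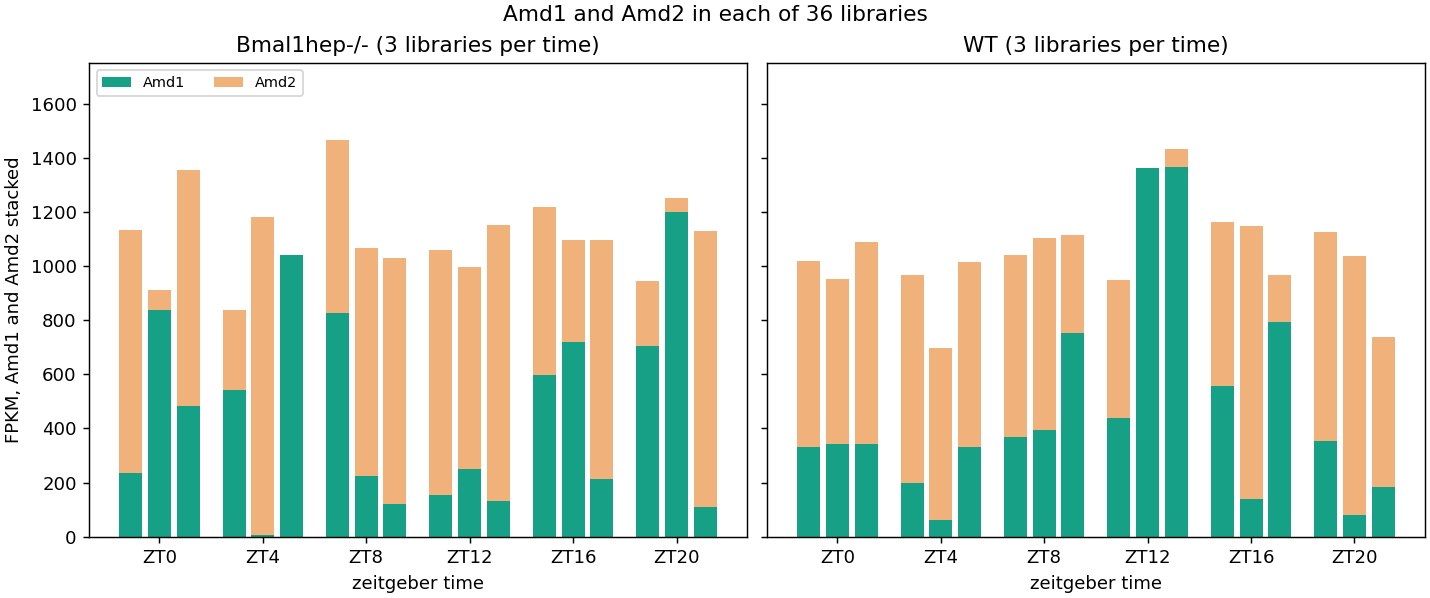
Stacked FPKM (vertical axis, from 0) of Amd1 (dark, below) and Amd2 (light, on top) in each library by zeitgeber time, with Bmal1hep-/- in the left panel and WT in the right. The totals stay between 699 and 1464 FPKM while the Amd1 share runs from 0.391% to 99.9%.

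Smox (chr2:131491496-131525922, plus strand, GRCm38), spermine oxidase, was abundant in both genotypes. Over 18 libraries it ran from 215 to 425 FPKM in Bmal1hep-/-, with a mean of 321 ± 53.4 (SD), and from 177 to 391 FPKM in WT, with a mean of 312 ± 50.5. At ZT16 its 3 Bmal1hep-/- libraries (339, 349.5 and 315 FPKM) were all below the 3 WT libraries (350.3, 363 and 371 FPKM), an order found for 3.96% of all genes tested. The log2 difference there was -0.11 ± 0.19 (limma adjusted p = 1.00), smaller than its SE. WT means of Smox were lowest at ZT4 (243 FPKM) and highest at ZT16 (361 FPKM), a ratio of 1.49 with no overlap of the libraries. Bmal1hep-/- means differed at most by a ratio of 1.195, with overlap. These extremes were picked from the means themselves, so the ratios and overlaps are a description and no test. The test of the rhythm difference of Smox gave an adjusted p of 0.913 in limma. Amplitudes were 0.05 ± 0.08 in Bmal1hep-/- and 0.20 ± 0.08 in WT, neither called, and the WT amplitude was 0.12 without WT ZT4 replicate 2.

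The comparison of the genotypes over all 10 genes found no difference past the threshold. For the mean level over all times limma called 0 of the 10 at an adjusted p under 0.05, and 0% of all genes tested (0 of 10837). One gene, Odc1, had an unadjusted p under 0.05, as had 8.37% of all genes. The mean difference was positive for 6 of the 10 genes and negative for 4, with a median of 0.02 on the log2 scale, and was positive for 5244 and negative for 5593 of all genes, with a median of -0.0028. The 4 cycling genes had mean log2 differences of -0.03 ± 0.06 for Glul, -0.0005 ± 0.06 for Slc7a2, 0.02 ± 0.08 for Slc38a2 and 0.14 ± 0.08 for Slc38a4. The 95% intervals were -0.16 to 0.10 for Glul, -0.13 to 0.13 for Slc7a2, -0.13 to 0.18 for Slc38a2 and -0.03 to 0.31 for Slc38a4. For Slc7a5, Slc3a2 and Smox the differences were -0.03 ± 0.08, 0.02 ± 0.05 and 0.04 ± 0.08. At each of the 6 times limma also called 0 of the 10 genes and 0% of all genes tested, and only Odc1 at ZT4 had an unadjusted p under 0.05, as had 9.06% of all genes at ZT4. At ZT0, ZT8, ZT12, ZT16 and ZT20 the shares of all genes with an unadjusted p under 0.05 were 2.2%, 3.08%, 7.25%, 2.45% and 12.6%, against 0 of the 10.

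The 3 libraries of a genotype lay wholly above or below those of the other in 3 of the comparisons of a gene at a time, those of Slc7a5 at ZT0, Amd1 at ZT12 and Smox at ZT16. Of all genes tested, Bmal1hep-/- lay wholly above WT in 6.55%, 6.98%, 2.41%, 4.39%, 5.48% and 4.63% at the 6 times in order. Bmal1hep-/- lay wholly below WT in 5.79%, 8.37%, 4.13%, 4.41%, 3.96% and 6.52% at those times. The 10 genes gave 1 above and 2 below over the 6 times, and read against those shares the 3 orders are no result about the 10 genes.

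**Figure D5:**
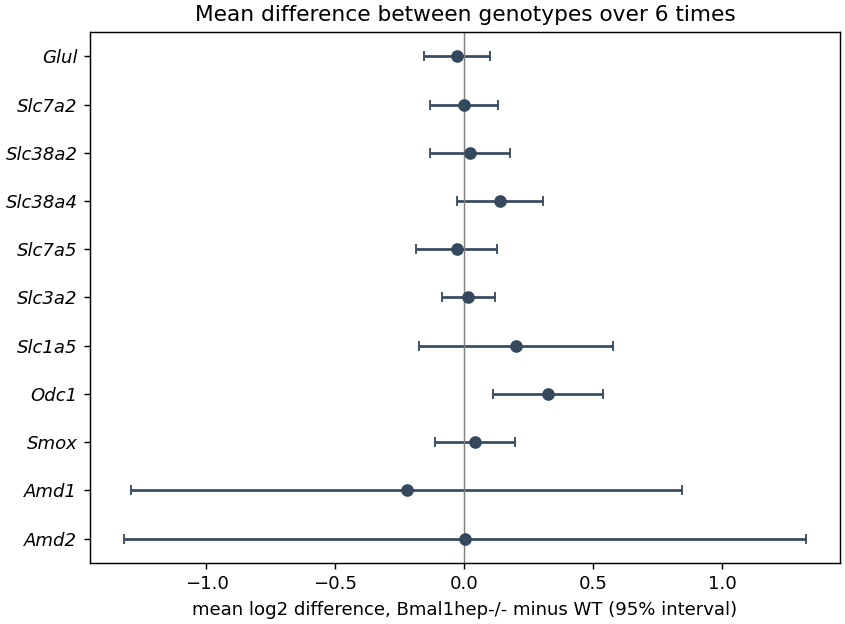
Mean log2 difference over 6 times, Bmal1hep-/- minus WT (horizontal axis, point and 95% interval from limma), for the 10 genes and Amd2. The interval of Odc1 (0.11 to 0.54) lies to the right of 0, and those of Amd1 and Amd2 are the widest.

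Differences that varied with time, and differences in the 24 h rhythm, were tested for all 10 genes and none passed. limma's F test of the interaction called 0 of the 10 and 0% of all genes tested (smallest adjusted p among the 10 genes 0.906). Its F test of the cosine and sine differences also called 0 of the 10 and 0% of all genes (smallest adjusted p among the 10 genes 0.913). At an unadjusted p under 0.05 these tests gave 0 of the 10 genes, and 4.64% and 4.01% of all genes. For the 4 cycling genes the 95% intervals of the amplitude difference were -0.17 to 0.21 in Glul, -0.31 to 0.07 in Slc7a2, -0.17 to 0.27 in Slc38a2 and -0.11 to 0.34 in Slc38a4. The intervals of their peak differences reached at most 2.41 h later and 1.74 h earlier in Bmal1hep-/-.

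In each of 4 lists of other genes of the same pathways, limma called 0 higher and 0 lower in Bmal1hep-/- for the mean level. It called 0 of all 10837 genes tested for the mean level, so these counts are no result about the lists. Over all genes tested, 8.37% had an unadjusted p under 0.05 in limma, and the difference was positive for 5244 and negative for 5593. The genes below are named by smallest p and not because they stood out from that share. Of 15 genes of glutamine and glutamate metabolism 13 were tested, and 1 had an unadjusted p under 0.05: Got1, the cytosolic aspartate aminotransferase. Got1 averaged 164 ± 19.1 FPKM in Bmal1hep-/- and 190.2 ± 17.3 FPKM in WT (SD, n = 18 each), a log2 difference of -0.21 ± 0.05 (limma adjusted p = 0.22). The other genes of smallest p in that list were Prodh, the first enzyme of proline breakdown (0.10 ± 0.06), Gpt, alanine aminotransferase (-0.10 ± 0.06), and Got2, the mitochondrial aspartate aminotransferase (-0.07 ± 0.05). The median of the list was 0.0023, with 7 positive and 6 negative. Of 27 other amino acid transporters 15 were tested, and 2 had an unadjusted p under 0.05, Slc43a2 (-0.15 ± 0.06), which carries large neutral amino acids, and Slc38a10 (-0.10 ± 0.05). Slc16a10, an exporter of aromatic amino acids, had 0.09 ± 0.05 and Slc38a3, the system N glutamine transporter SNAT3, had -0.11 ± 0.08. The median of these transporters was 0.02, with 12 positive and 3 negative.

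Of 25 other polyamine genes 20 were tested and 0 had an unadjusted p under 0.05, where 8.37% of all genes had. Of these 20, 13 were positive and 7 negative, with a median of 0.02. Those of smallest p were Azin2, an antizyme inhibitor (-0.18 ± 0.09), Ahcy, which clears S-adenosylhomocysteine (0.07 ± 0.04), Paox, the polyamine oxidase of acetylated forms (0.09 ± 0.05), and Sms, spermine synthase (0.12 ± 0.07). Of 12 known regulators of these genes 11 were tested, and 1 had an unadjusted p under 0.05, Klf15, a glucocorticoid-induced regulator of amino acid use. Klf15 averaged 14.98 ± 3.11 FPKM in Bmal1hep-/- and 16.7 ± 3.48 FPKM in WT, a log2 difference of -0.15 ± 0.06 (limma adjusted p = 0.478). The median of the regulators was -0.04, with 4 positive and 7 negative, and Rptor, Mtor and Foxo1 had -0.06 ± 0.04, -0.07 ± 0.05 and 0.05 ± 0.05. No member of the 4 lists was called at any single time, for the interaction or for a difference in rhythm by limma. In each of these tests 0% of all genes tested were called.

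Rhythms were also called in some of these pathway genes, given here as a description. Over all genes tested the shares called were 5.47% in Bmal1hep-/- and 6.03% in WT. Among 15 other transporters tested, 4 were called in Bmal1hep-/- and 6 in WT, with 4 in both: Slc43a1, Slc7a8, Slc1a1 and Slc16a10. Slc43a1, which carries large neutral amino acids out of cells, peaked by day, at 6.71 h in Bmal1hep-/- and 6.90 h in WT, with amplitudes of 0.56 and 0.55. Slc7a8, the LAT2 light chain that pairs with Slc3a2, peaked at 14.1 h in Bmal1hep-/- and 14.5 h in WT, with amplitudes of 0.27 and 0.38. Of 13 tested genes of glutamine and glutamate metabolism 1 was called in Bmal1hep-/- and 3 in WT, with Prodh in both (amplitude 0.27 in Bmal1hep-/- and 0.51 in WT, peaks at 14.5 and 15.4 h). Among 20 tested polyamine genes 2 were called in Bmal1hep-/- and 3 in WT, with 2 in both. These were Mat2a and Mat2b, which encode subunits of the enzyme that makes S-adenosylmethionine. Mat2a had amplitudes of 0.28 in Bmal1hep-/- and 0.32 in WT and peaked at 12.3 and 13.2 h. Of 11 tested regulators 2 were called in Bmal1hep-/- and 3 in WT, with Klf15 and Cebpb in both.

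The daily courses of the 10 genes were also set beside all other tested genes, by Pearson's r over the 12 group means of log2(FPKM + 1). These are descriptions over 12 points that share libraries. Glul was most like Tle4, a corepressor (r of 0.973), Slc25a30, a mitochondrial carrier (0.964), and Tsc22d3, the glucocorticoid-induced gene GILZ (0.959). Slc38a2 was most like Slc16a9, a monocarboxylate transporter family member (0.985), Nfil3, a clock-controlled repressor (0.975), and Ell2, an elongation factor (0.968). Slc38a4 was most like Il1r1, an interleukin receptor (0.984), Smad3, a signal transducer of TGF-β (0.961), and Clock, the partner of BMAL1 (0.955). Slc7a2 was most like Mylk4, a muscle kinase gene (0.952), Fam160b1 (0.931) and Tmem57 (0.928).

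The genes not called for a rhythm had lower best likeness. Slc7a5 was nearest to Rac1 (0.917), Gpt2 (0.874) and Ccny (0.867), Slc3a2 to Mpg (0.911), Prr5 (0.885) and Gps2 (0.878), and Slc1a5 to Cyp2e1 (0.936), Rheb (0.933) and Cachd1 (0.889). Odc1 was nearest to Adi1, an enzyme of the methionine salvage that follows polyamine synthesis (0.882), Cdkn2aipnl (0.878) and Stab2 (0.853). Smox was nearest to Dtymk (0.869), Tha1 (0.858) and Munc (0.839), and Amd1 to Phka1 (0.860), Ppm1k (0.858) and Musk (0.830). The group means of Amd1 rest on its varying share of the sum with Amd2. Those of Slc1a5 at Bmal1hep-/- ZT4 and ZT20 include the 2 libraries highest in adipocyte markers. Among the 10 genes themselves, Glul and Slc7a2 correlated at 0.87, Slc38a2 and Slc38a4 at 0.44, and Slc7a2 and Slc38a4 at -0.68.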

How the data were processed

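The values are FPKM by gene symbol that the authors deposited in 1 table for 36 libraries of polyadenylated RNA. Per the submitters' processing notes, FastQC 0.11.8, STAR and the builds mm10 and GRCm39 were used. The tool that computed FPKM, its annotation and its treatment of reads shared between genes are not stated in the sources used here. Absolute depth is unknown. Relative depth was estimated from FPKM steps in 3900 genes of mean below 0.3 FPKM (94.1% of library pairs within 0.05 on the log2 scale). No 2 libraries held identical values. FPKM sums ran from 518559 to 830136. That replicates came from separate animals is implied only by the label of biological replicate.

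The genes and lists were chosen with earlier results of these data known. log2(FPKM + 1) was tested in 10837 genes of mean FPKM of at least 1 with limma 3.58.1 under R 4.3.3 (lmFit and contrasts.fit, then eBayes with its trend and robust options), with 12 group means (24 residual degrees of freedom). Rhythms used a mean, cosine and sine of 24 h per genotype (30 degrees of freedom), with delta-method SEs. Amplitude intervals near 0 are approximate. The Benjamini-Hochberg adjustment ran over all tested genes, at a threshold of 0.05. Tests were tried on simulated data. The text names all 10 genes, up to 4 genes of smallest p per list, and the 3 genes most like each of the 10. Amd2, Acta1, Ckm, Myh4 and the pathway genes named for their rhythms were chosen after their values were seen. Relations between measures used deviations from group means and 100000 permutations within groups. Sequences came from GENCODE M21 transcripts and annotation (GRCm38) and RefSeq promoters (GRCm38.p6), which need not be the build behind the FPKM, and were handled with Python 3.11.15. Alternatives were a pseudocount of 0.1, median-of-ratios rescaling, no filter, a filter at 5 FPKM, a replicate block, quantile normalization, time as a factor, leaving out 6 libraries or each library in turn, and, chosen after seeing the data, the sum of Amd1 and Amd2 and leaving out the 2 libraries highest in adipocyte markers.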

Additional observations from a re-analysis of the deposited data

How the results depend on the processing

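Counts of the 10 genes called between genotypes were 0 under each alternative in which they were tested, and the rhythm counts stayed at 4 or 5 per genotype. Slc7a5 could not be tested with a filter at 5 FPKM. The mean difference of Slc7a2 turned positive at 0.00074 with a pseudocount of 0.1, 0.0022 with median-of-ratios rescaling, 0.0041 with quantile normalization, 0.034 without the 6 libraries and 0.014 without the 2 libraries highest in adipocyte markers. That of Slc7a5 was 0.00042 with quantile normalization, that of Slc3a2 was -0.037 without the 6 and -0.019 without the 2, and that of Slc1a5 was -0.035 and -0.0082. Amd1 summed with Amd2 gave 0.085. Without the 6 libraries the mean difference was 0.21 ± 0.08 for Slc38a4 (limma adjusted p = 0.35), against 0.14 with all libraries. It was 0.11 ± 0.07 for Slc38a2, against 0.02, and -0.10 ± 0.09 for Slc7a5, against -0.03. Leaving out 1 library at a time gave mean differences of -0.030 to 0.029 for Slc7a2, -0.010 to 0.061 for Slc38a2, -0.056 to 0.0044 for Slc7a5, -0.0056 to 0.038 for Slc3a2, and -0.46 (without Bmal1hep-/- ZT4 replicate 3) to 0.17 (without Bmal1hep-/- ZT4 replicate 2) for Amd1. None of these was past the threshold in the first place, and the cause was not tested. Glul ranged from -0.060 (without WT ZT12 replicate 2) to -0.0013 (without WT ZT12 replicate 1), Smox from 0.0064 (without WT ZT4 replicate 2) to 0.077 (without Bmal1hep-/- ZT4 replicate 1), Slc38a4 from 0.11 to 0.18, Odc1 from 0.29 to 0.37, and Slc1a5 from 0.076 (without Bmal1hep-/- ZT4 replicate 1) to 0.28.

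Calls of a rhythm were added for Slc7a5 in WT with quantile normalization and in 4 fits without 1 library (WT ZT4 replicate 2, WT ZT16 replicate 3, Bmal1hep-/- ZT4 replicate 3 or Bmal1hep-/- ZT20 replicate 2), for Odc1 in WT without WT ZT0 replicate 3 (amplitude 0.40) and for Slc1a5 in Bmal1hep-/- without the 2 libraries highest in adipocyte markers (amplitude 0.45). With the replicate block the mean difference of Odc1 was 0.33 ± 0.10 (limma adjusted p = 0.29), and 0 genes were called. Deviations of same-numbered libraries of the 2 genotypes at a time correlated at a Pearson's r of -0.228 to 0.178 (18 pairs, 3 over 0.1). These values compare only libraries of the same time, so they cannot tell whether the numbers pair the samples. Amplitudes of Smox ran from 0.0093 (without Bmal1hep-/- ZT12 replicate 2) to 0.10 (without Bmal1hep-/- ZT0 replicate 3) in Bmal1hep-/- and from 0.12 to 0.23 in WT. FPKM carry no read counts, so no counting error can be given. Of the 10 genes, Slc7a5 is the one whose low level limits the size that could be seen. Over all genes tested the counts moved more. The mean difference called 0 genes with all libraries and 4 without the 2 libraries highest in adipocyte markers, and the difference at ZT4 called 0 with all libraries, 115 without the 6 and 38 without the 2. That at ZT20 called 332 without Bmal1hep-/- ZT20 replicate 1, and the rhythm in Bmal1hep-/- was called for 593 genes with all libraries and 383 without the 6.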
